A study of Mus musculus with 9 samples.

Results

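Integrins are the receptors through which a cell holds on to the matrix outside it, and each one is a pair of an alpha and a beta chain. Described here are 8 genes for alpha chains (Itga1, Itga3, Itga4, Itga5, Itga6, Itga8, Itga9 and Itgav), the gene for the beta chain they share (Itgb1) and Npnt, which encodes nephronectin, the matrix ligand of integrin alpha 8. The 10 genes were listed by name, and all 10 were found by matching Ensembl identifiers to mouse symbols among the 54232 genes counted. Bulk sequencing measured RNA of the mouse cochlear duct at E14.5 in 9 libraries, 3 of each genotype: WT (Prdm16 +/+), Prdm16 cGT/+ (heterozygote) and Prdm16 cGT/cGT (null). The cGT allele is a gene trap that acts as a null allele in the whole animal and is not limited to the duct. Each library was made from the ducts of both ears of 1 embryo, and the embryos of each genotype were littermates. Null mice die shortly after birth.

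An alpha chain decides which matrix proteins the pair binds. The alpha 5, alpha 8 and alpha v chains recognise a short stretch of arginine, glycine and aspartate (RGD) in their ligands, alpha 3 and alpha 6 bind laminins of the basement membrane, alpha 1 binds collagens, and alpha 4 and alpha 9 form a group of their own. Alpha 8 pairs only with beta 1, and nephronectin is its best known ligand, a basement membrane protein of epithelia whose loss, like that of alpha 8, disturbs kidney development. In the inner ear, alpha 8 is known for its part in forming hair cell stereocilia. Kölliker's organ, the tall epithelium beside the prosensory domain of the embryonic duct, secretes much of the tectorial membrane and disappears as the duct matures.

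The site on nephronectin that alpha 8 reads can be seen in the coding sequence. The codons for RGD and the 9 bases on either side are given for Npnt and for Egfl6, a related ligand described with the other ligands, with the RGD codons in capitals, from the longest coding transcript of each gene in the GENCODE M21 annotation of mm10.
Npnt codons: cagaaacccAGAGGAGATgtgttcatt
Egfl6 codons: cgaaccctcCGAGGGGATgtattctcc
The arginine codon is number 430 in Npnt, whose coding sequence is 1827 bases, and number 360 in Egfl6, whose coding sequence is 1650 bases. The same search found RGD codons in frame in 17 of 25 ligand genes read, among them Fn1, Vtn and Spp1, and not in Tnc or Postn. A match is a description of the sequence and does not show binding.

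Total counts ran from 24095322 to 30819118 per library, and a count of 3, taken as the floor, came to between 0.0968 and 0.126 CPM, which covers counting error only. CPM stands for counts of a gene scaled to a common library size, after TMM scaling. The targeted gene fell with genotype, from 202 ± 21.0 CPM (SD, n = 3) in WT to 138 ± 14.4 in heterozygotes and 23.4 ± 4.16 in null embryos, and its groups did not overlap. Markers of cochlear epithelium were high in all 9 libraries (summed level of 10 genes 9672 to 11119 CPM in WT, 11502 to 11842 in heterozygotes and 12739 to 16707 in null embryos, with no defining marker at 0 and none of the 10 called). Most of that sum was Oc90 (7243 to 13368 CPM), while Cdh1, for E-cadherin, stood at 353 to 372 CPM in WT and 329.9 to 395 CPM in null embryos. Markers of other cells set 3 libraries apart. The summed level of 10 periotic mesenchyme markers was 589, 1087 and 115 CPM in WT 1, 2 and 3, between 52.8 and 101 CPM in heterozygotes, and 64.2, 36.8 and 1471 CPM in Null 1, 2 and 3. The 6 endothelium markers followed the same libraries, at 84.6, 69.2 and 2.61 CPM in WT, 3.49 to 6.28 CPM in heterozygotes and 5.32, 2.55 and 48.6 CPM in null embryos. Null 3 alone was high in the cartilage genes Acan and Matn1 (891 CPM against 7.56 to 20.6 CPM in the other 8 libraries), which were looked at after the libraries had been seen. Some of the values that rest on WT 1, WT 2 or Null 3, among them those of Itga8, are therefore also given without those 3 libraries. They come from a fit of the other 6 in which the lone WT library is assumed to vary like the rest. In bulk RNA, fewer cells of a type and less RNA per cell cannot be told apart.

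Itga8 was lower in null ducts than in either of the other genotypes. Its level was 259, 195 and 168 CPM in WT 1, 2 and 3, 181, 109 and 143 CPM in Het 1, 2 and 3, and 41.7, 40.4 and 57.9 CPM in Null 1, 2 and 3. All 3 null values lay below all 6 others, and the WT and heterozygote values overlapped. The null mean was 22.5% of the WT mean (46.7 ± 9.78 against 207 ± 46.8 CPM, SD, n = 3). Genotypes were compared 2 at a time with the quasi-likelihood test of edgeR over all genes, and a gene was called at a Benjamini-Hochberg adjusted p under 0.05 with an absolute log2 fold change over 0.5. Itga8 fell in null against WT by 2.16 on the log2 scale (SE 0.195, 95% interval -2.61 to -1.71, edgeR adjusted p = 0.00296) and in null against heterozygote the value was -1.63 (SE 0.206, edgeR adjusted p = 0.0180). The heterozygote against WT gave -0.53 (SE 0.183, 95% interval -0.94 to -0.12, edgeR adjusted p = 0.245), which was not called. It was called with the number in the labels as a block (-0.53, edgeR adjusted p = 0.0331) and with no filter on low counts.

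Itga8 also fell in null embryos without the libraries with mesenchyme RNA. Without WT 1, WT 2 and Null 3 the log2 fold change was -2.03 against WT (edgeR adjusted p = 0.00227) and -1.81 against heterozygotes (edgeR adjusted p = 0.00125). The heterozygote value against WT moved from -0.53 to -0.22 in the same fit (edgeR adjusted p = 1.00), and to -0.33 without WT 1 alone (edgeR adjusted p = 0.456). With any 1 embryo left out, the null against WT value kept its call in 6 of 6 fits. The null against heterozygote value kept it in 3 of 6, and its edgeR adjusted p was 0.0615 without Null 1, 0.0776 without Het 1 and 0.106 without Het 3. The 6 markers of Kölliker's organ, chosen with their change in these libraries known and so not independent, summed to 3362 to 4187 CPM in WT, 3177 to 3952 CPM in heterozygotes and 1716 to 2014 CPM in null embryos, and 6 of 6 were called lower in null against WT, beside 0.786% of all genes tested, a count that the choice of markers had fixed. Tectb, for the tectorial membrane protein beta-tectorin, was named here after its values were seen and is not among the 6. The study lists it for Kölliker's organ and, with higher enrichment, for the prosensory domain, so it does not mark either region alone. It rose, from 712 to 782 CPM in WT to 1113 to 1216 CPM in heterozygotes and 1111 to 1696 CPM in null embryos (log2 fold change of null against WT 0.94, SE 0.160, edgeR adjusted p = 0.0326). Tectb lost that call in 5 of 6 fits with an embryo left out (edgeR adjusted p from 0.0671 to 0.152) and kept it without Null 3 (0.00215). The value was 1.20 without WT 1, WT 2 and Null 3. The 6 markers of the prosensory domain, chosen in the same way, summed to 896 to 981 CPM in WT, 1112 to 1115 CPM in heterozygotes and 1057 to 1349 CPM in null embryos, and 2 of 6 were called higher in null against WT, beside 0.92% of all genes tested, from which nothing is read either. The part of either in the Itga8 value was not tested.

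**Figure D1:**
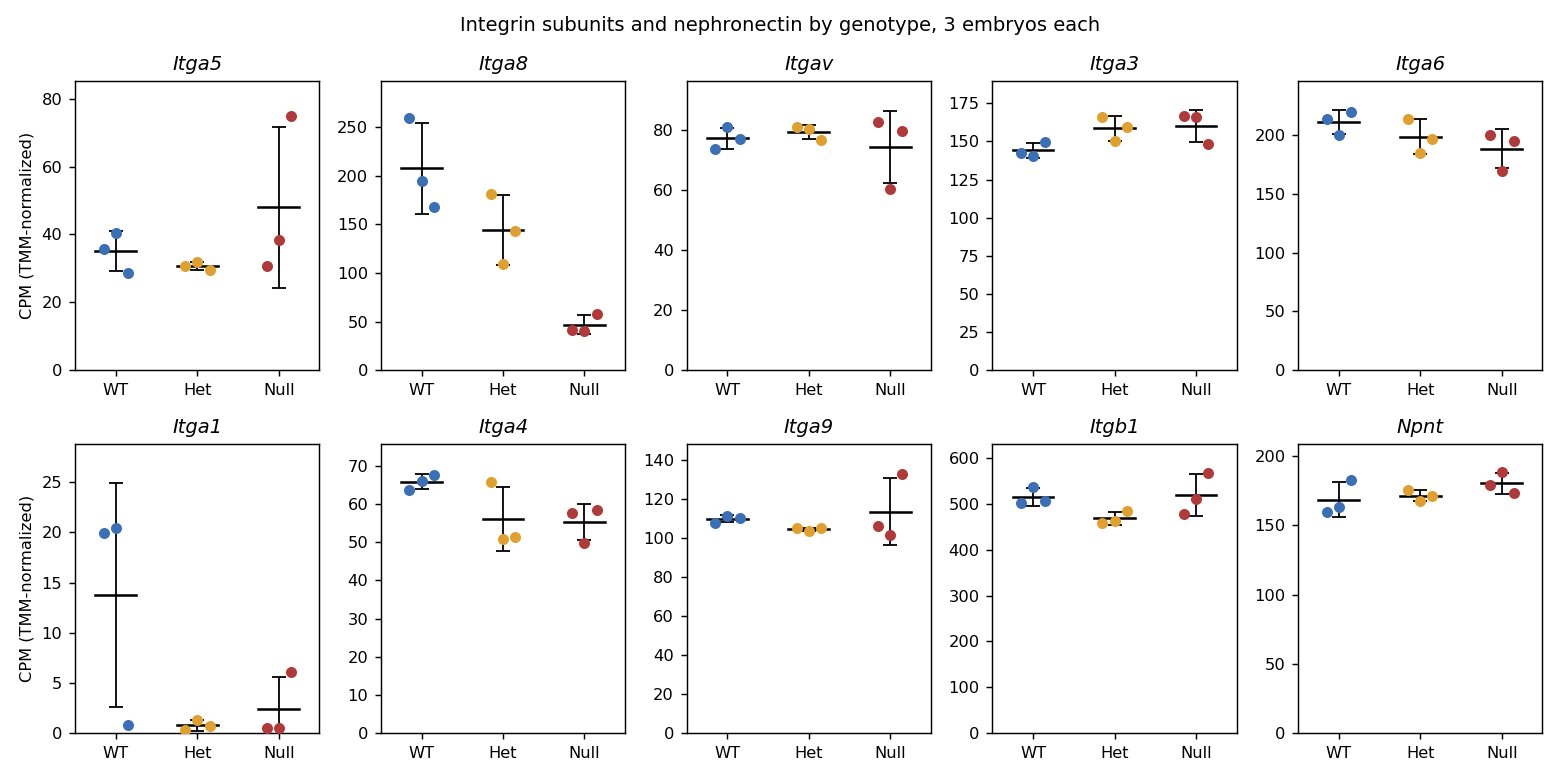
Level of each of the 10 genes in every library, in CPM after TMM scaling on axes that start at 0, with 1 point per embryo and bars for the mean and SD of 3 embryos. Itga8 steps down from WT (168 to 259 CPM) to null (40.4 to 57.9 CPM), the WT points of Itga1 split apart, 1 null point of Itga5 stands at 74.9 CPM, and the other panels stay close to level.

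The gene Itga8 (ENSMUSG00000026768) is on the minus strand of chromosome 2, between 12106632 and 12301922 in mm10. An antisense gene, E030013I19Rik (ENSMUSG00000086843), runs the other way from 12300946 to 12312315, so the starts of the pair lie 976 bases apart, within each other's spans, and their exons share 372 bases. The 250 bases before the RefSeq start of Itga8 are shown because this sense and antisense pair moved together, and they lie inside the span of the antisense gene. They read chr2:12301945-12302194 on the minus strand of GRCm38.p6, the build of mm10, 5′ to 3′, with each CG in capitals.
Itga8 upstream: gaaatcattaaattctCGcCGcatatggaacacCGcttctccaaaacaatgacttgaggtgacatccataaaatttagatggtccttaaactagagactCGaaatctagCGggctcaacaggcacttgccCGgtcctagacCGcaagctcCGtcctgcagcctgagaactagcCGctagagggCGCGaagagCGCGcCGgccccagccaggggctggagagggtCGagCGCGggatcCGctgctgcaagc
This stretch held 18 CG. The RefSeq window of 300 bases around the start held 23, and 21.5% of 32851 such windows held as many or more. The letters TATAAA (in 13.6% of windows), GGGCGG (35.7%) and CACGTG (7.15%) were searched on both strands and were not in this window.

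E030013I19Rik fell with Itga8. It held 397, 215 and 212 counts in WT, 203, 129 and 162 in heterozygotes and 46, 57 and 53 in null embryos, and the null values lay below the rest. Its log2 fold change was -2.35 in null against WT (SE 0.296, edgeR adjusted p = 0.00871) and -1.65 in null against heterozygote (SE 0.255, edgeR adjusted p = 0.0349). Heterozygotes against WT gave -0.70 (edgeR adjusted p = 0.324). The null against WT call was lost without Null 1 (edgeR adjusted p = 0.0547), and the null against heterozygote call was lost in 5 of 6 fits with an embryo left out. The ratio of the antisense count to the Itga8 count, which are separate counts, was between 3.83% in Null 3 and 5.67% in WT 1. The strand setting of the counting is not given in the sources used here, so reads of the 372 shared bases cannot be told apart between the genes. The qPCR primers that the study designed for Itga8 also sit there, and are shown for that reason, 5′ to 3′, wholly in capitals since every base is shared with the antisense gene.
Itga8 forward primer: CGTCTCTGTTGCGTCTCGG
Itga8 reverse primer: ATCCAAGTTGAACGCCAGACA
They match exon 1 of Itga8 in coding sequence at chr2:12301710-12301728 and chr2:12301660-12301680, enclose 69 bases, and share 19 of 19 and 21 of 21 bases with exons of the antisense gene. No qPCR value was analysed here.

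Itga8 made up a smaller share of the alpha chain RNA in null ducts. Levels were compared between genes as CPM per kb of exon, the union of a gene's annotated exons. In WT ducts the order was Itgb1 (126 CPM per kb), Npnt (33.6), Itga8 (28.2), Itga3 (25.2), Itga6 (23.4), Itga9 (14.3), Itgav (7.19), Itga5 (7.10), Itga4 (4.71) and Itga1 (0.739). The ranges over the WT embryos overlapped between Npnt and Itga8, between Itga8 and Itga3, and between Itgav and Itga5, so these neighbours do not differ beyond their spread, and the Itga8 range (22.8 to 35.2 CPM per kb) also reached that of Itga6 (22.2 to 24.3). Itga8 made up 29.9%, 24.2% and 21.6% of the summed alpha level per kb in WT, 22.4%, 16.0% and 19.5% in heterozygotes, and 6.36%, 6.56% and 7.87% in null embryos. The null shares lay below all others. The difference of null from WT was -18.3 points (25.2 ± 4.25% to 6.93 ± 0.82%, exact two-sided permutation p = 0.1, 0.3 adjusted over 9 tests), and 0.1 is the smallest p that 3 against 3 embryos allow. It was -15.2 points without WT 1, WT 2 and Null 3.

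The other 7 alpha genes together did not differ beyond the spread of the embryos. Their sum was 82.7 ± 0.243 CPM per kb in WT, 81.0 ± 3.63 in heterozygotes and 84.5 ± 7.05 in null embryos (SD, n = 3, exact permutation p = 0.7 for null against WT and 0.6 for heterozygote against WT). With Itga8 the sum went from 111 ± 6.12 CPM per kb in WT to 90.8 ± 8.33 in null embryos, with no overlap (exact permutation p = 0.1). A p above the threshold does not show that the sums are equal.

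**Figure D2:**
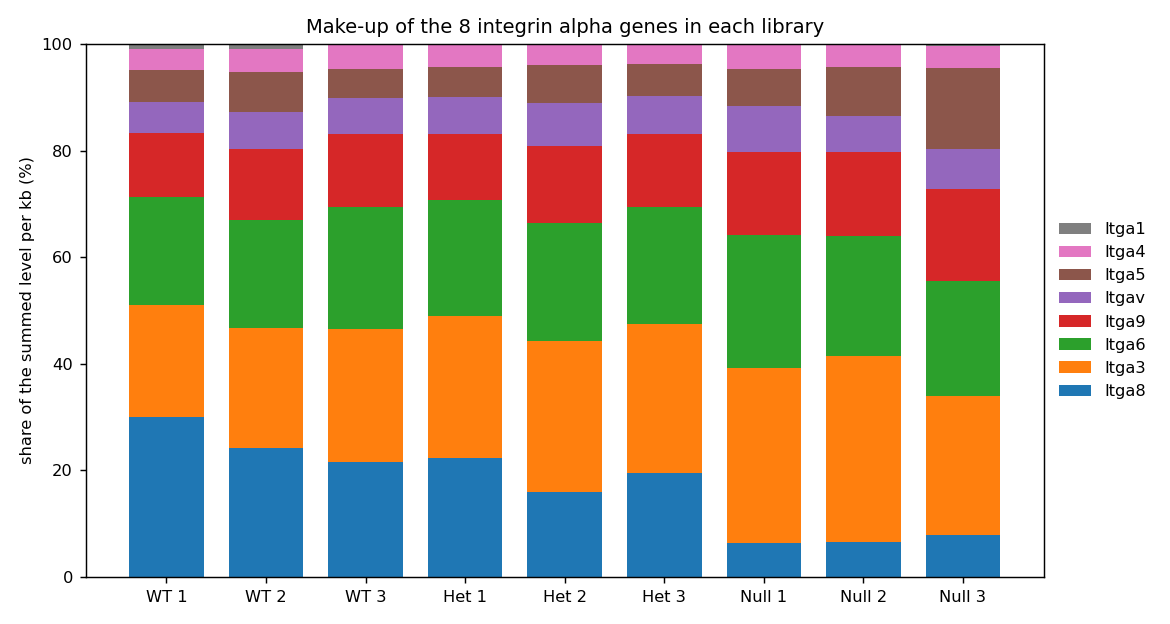
Share of each of the 8 integrin alpha genes in their summed level per kb of exon, 1 bar per library, in percent. The Itga8 segment takes 21.6% to 29.9% of the WT bars and 6.36% to 7.87% of the null bars, and the Itga5 segment is widest in Null 3.

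Of the other RGD-binding chains, Itgav, which pairs with several beta chains, was not called in any comparison. It stood at 73.7, 80.9 and 77.1 CPM in WT, 81.2, 80.4 and 76.8 CPM in heterozygotes and 82.6, 60.5 and 79.8 CPM in null embryos. Null 2 was low, and the other 8 libraries lay close together. The log2 fold change of null against WT was -0.06 (95% interval -0.35 to 0.22, edgeR adjusted p = 0.878). Itga5, the main fibronectin receptor chain, was 35.8, 40.5 and 28.8 CPM in WT, 30.7, 32.0 and 29.6 CPM in heterozygotes, and 30.7, 38.3 and 74.9 CPM in null embryos. The high value was that of Null 3, the library with mesenchyme and cartilage RNA, and the other 8 libraries overlapped. Null against WT gave 0.45 (SE 0.311, edgeR adjusted p = 0.631). It was -0.02 without Null 3, 0.27 without WT 1, WT 2 and Null 3 (edgeR adjusted p = 0.636) and 0.70 with the level of mesenchyme markers as a covariate (SE 0.149, edgeR adjusted p = 0.0566). Null against heterozygote gave 0.64 (SE 0.290, 95% interval -0.02 to 1.31, edgeR adjusted p = 0.449), and 0.17 without the 3 libraries. The part of mesenchyme or cartilage in the Itga5 value was not tested.

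Neither of the laminin-binding chains was called. Itga3, a chain of basement membrane adhesion in epithelia, was 142, 140.4 and 149.8 CPM in WT, 166, 150.0 and 159 CPM in heterozygotes and 166, 166 and 148 CPM in null embryos. Heterozygotes lay just above WT with no overlap, while 1 null value fell inside the WT range. The log2 fold change was 0.14 in heterozygotes against WT (edgeR adjusted p = 0.265) and 0.15 in null against WT (95% interval -0.03 to 0.32, edgeR adjusted p = 0.492). Itga6, which forms hemidesmosomes when it pairs with beta 4, was 214, 200.1 and 219 CPM in WT, 214, 185 and 197 CPM in heterozygotes and 200.4, 169.7 and 196 CPM in null embryos. The groups overlapped, and null against WT gave -0.17 (95% interval -0.37 to 0.03, edgeR adjusted p = 0.486).

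Itga1, the collagen-binding chain, was low in 6 of the 9 libraries and high in WT 1, WT 2 and Null 3. Its counts were 539, 522 and 24 in WT 1, 2 and 3, 7, 37 and 18 in heterozygotes, and 13, 15 and 145 in Null 1, 2 and 3. These 3 were the libraries with high mesenchyme and endothelium markers, whose part in the Itga1 values was not tested. The WT mean was 13.7 ± 11.2 CPM (SD, n = 3), with WT 3 at 0.813 CPM beside 0.281 to 1.33 CPM in heterozygotes. The log2 fold change against WT was -4.15 in heterozygotes (SE 0.969, edgeR adjusted p = 0.0938) and -2.56 in null embryos (SE 1.24, edgeR adjusted p = 0.467), neither called. DESeq2 called the heterozygote value (-4.18, adjusted p = 0.0257), and edgeR called it without WT 3 (-4.71, adjusted p = 1.68e-05), with no filter on low counts and with the number in the labels as a block. Without WT 1, WT 2 and Null 3 the values were -0.09 for heterozygotes and -0.67 for null embryos (edgeR adjusted p = 1.00 and 0.805).

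**Figure D3:**
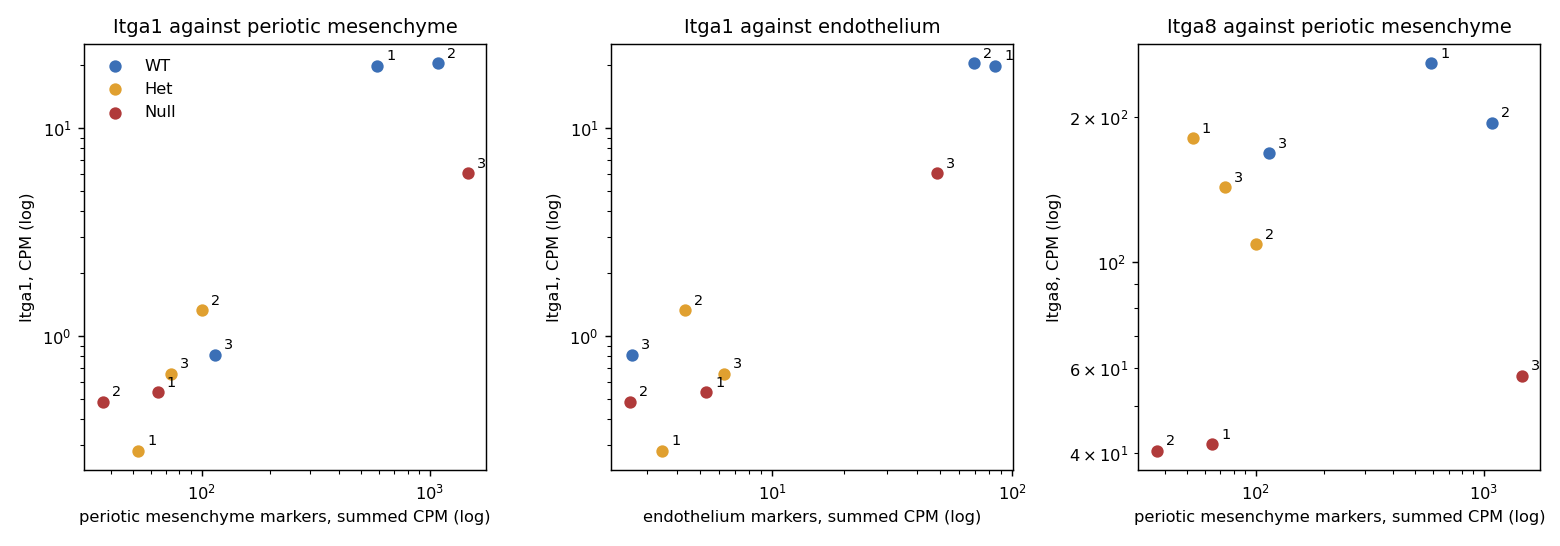
Level of Itga1 against the summed level of 10 periotic mesenchyme markers (left) and 6 endothelium markers (middle), and of Itga8 against the mesenchyme markers (right), in CPM on log axes, 1 numbered point per library. WT 1, WT 2 and Null 3 stand to the right in each panel and hold the 3 highest Itga1 values. In Itga8, Null 3 (57.9 CPM) lies below all WT and heterozygote points. Within their genotypes these libraries are also the highest in Itga8, at 259 and 195 CPM against 168 CPM in WT 3, and 57.9 CPM against 41.7 and 40.4 CPM in Null 1 and Null 2.

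Itga4 and Itga9 bind fibronectin variants, VCAM1 and other ligands without a need for RGD. Itga4 was 63.7, 66.2 and 67.8 CPM in WT, 65.7, 51.0 and 51.3 CPM in heterozygotes, and 57.7, 49.9 and 58.5 CPM in null embryos. All null values lay below the WT values, and Het 1 was as high as WT. The log2 fold change was -0.26 in null against WT (SE 0.0888, 95% interval -0.46 to -0.05, edgeR adjusted p = 0.280) and -0.24 for heterozygotes against WT (SE 0.0921, edgeR adjusted p = 0.305), so neither was called. Itga4 shares 1124 exon bases with Cerkl on the opposite strand, which held 5 to 50 counts per library against 1689 to 1999 for Itga4 in WT. Itga9 was 108, 111 and 110.4 CPM in WT, 105, 104 and 105 CPM in heterozygotes and 106, 102 and 133 CPM in null embryos, and again Null 3 was the high one. Null against WT gave 0.04 (95% interval -0.21 to 0.29, edgeR adjusted p = 0.907) and -0.08 without the 3 libraries with mesenchyme RNA.

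Itgb1, the beta chain that can pair with all 8 alpha chains, was the most abundant of the 10. It stood at 503, 538 and 506 CPM in WT, 458, 464 and 484 CPM in heterozygotes, and 479, 510.0 and 569 CPM in null embryos. Heterozygotes lay below WT without overlap, and null values spanned the WT range. The log2 fold change was -0.14 in heterozygotes against WT (SE 0.0478, edgeR adjusted p = 0.236) and 0.00 in null against WT (95% interval -0.21 to 0.22, edgeR adjusted p = 0.990). The direction of that null value turned with the scaling, to -0.0066 with library size alone.

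Npnt, the ligand, was not called in any comparison. Its level was 159.7, 163 and 183 CPM in WT, 176, 167 and 171 CPM in heterozygotes, and 179, 188 and 173 CPM in null embryos. The 3 groups overlapped, with means of 169 ± 12.5, 171 ± 4.15 and 180.3 ± 7.69 CPM (SD, n = 3). Null against WT gave a log2 fold change of 0.09 (SE 0.0803, 95% interval -0.10 to 0.28, edgeR adjusted p = 0.711), heterozygote against WT 0.02 (95% interval -0.10 to 0.15) and null against heterozygote 0.07 (95% interval -0.09 to 0.23). The upper and lower bounds of these intervals leave out a change of the size seen for Itga8. Without the 3 libraries with mesenchyme RNA the null against WT value was 0.01. Npnt (ENSMUSG00000040998) is on the minus strand of chromosome 3, between 132881745 and 132950291 in mm10, and no other gene shares its exons.

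Over the members, all 10 passed the filter on low counts in each comparison. In null against WT 1 of 10 was called, Itga8, which was lower, and none was higher, against 1.71% of 17168 genes called in either direction. In null against heterozygote the same gene was the 1 called, against 0.615% of 17067 genes (0.293% higher and 0.322% lower). In heterozygotes against WT edgeR called 0 of 10 higher and 0 of 10 lower, against 0.0521% and 0.0984% of 17269 genes (0.151% in either direction). At an unadjusted p under 0.05 edgeR had 5 of the 10 there (13.1% of all genes), 2 of 10 in null against WT (12.2%) and 1 of 10 in null against heterozygote (11.4%). DESeq2 called 1 of 10 in heterozygotes against WT (1.72% of 17264 genes). Groups did not overlap for 2 members in null against WT (19% of all genes), 3 in heterozygotes against WT (18%) and 1 in null against heterozygote (18.2%). The median log2 fold change of the 10 was -0.03, -0.11 and 0.04 in null against WT, heterozygotes against WT and null against heterozygote, beside 0.01, 0.00 and 0.01 over all genes tested. The 3 comparisons share libraries in pairs, so they are not separate observations. Leaving aside Itga8, Itga1 and Itga5, the log2 fold changes of the other 7 in null against WT lay between -0.26 and 0.15, with 95% intervals that reached from -0.46 to 0.32.

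**Figure D4:**
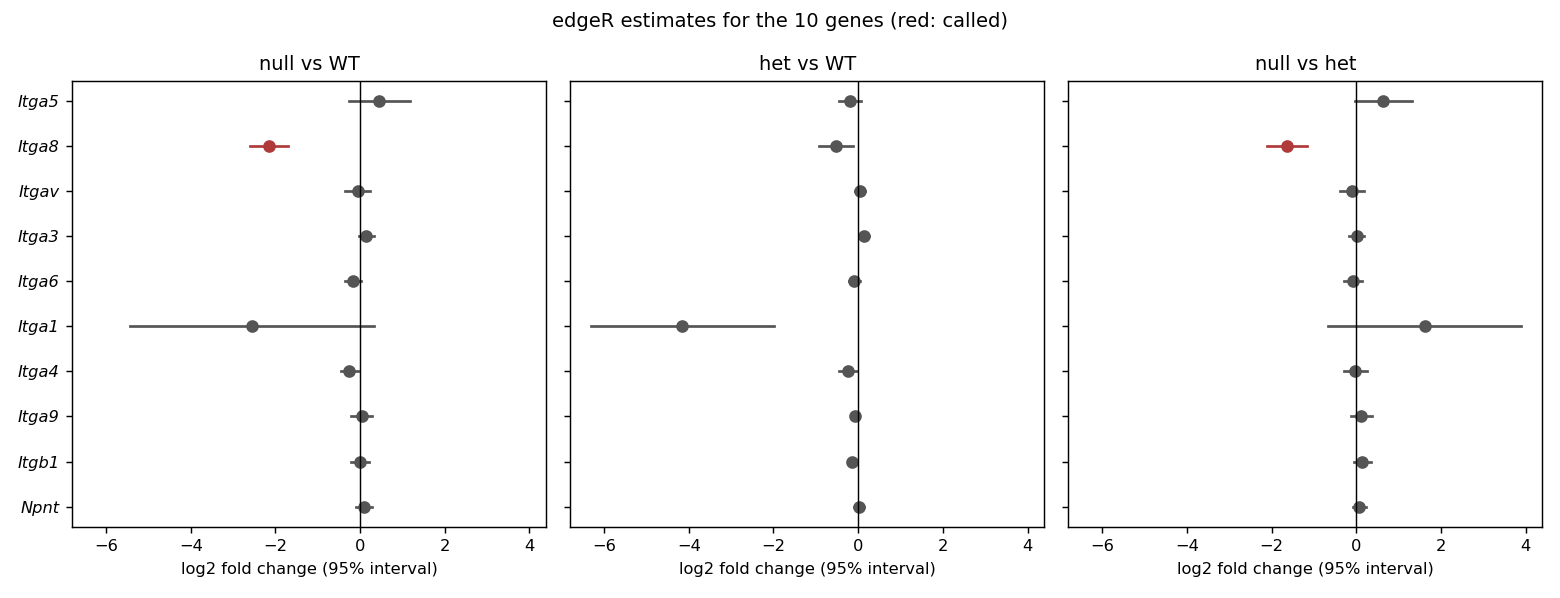
Log2 fold change and 95% interval from edgeR for the 10 genes in null against WT, heterozygote against WT and null against heterozygote, with called values in red. Itga8 is called in the first (-2.16) and the last (-1.63), the Itga1 intervals are the widest, Itga5 has the next largest values (0.45 and 0.64, not called), and the other 7 genes lie between -0.26 and 0.15 in every panel.

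Of the other integrin ligands, 22 of 24 listed genes passed the filter in null against WT, where 2 were higher (0.92% of all genes were called higher) and none lower, with a median of 0.18. Egfl6 encodes an epidermal growth factor repeat protein related to nephronectin that also binds integrin alpha 8. It was 8.74, 9.37 and 9.52 CPM in WT, 8.10, 10.9 and 9.79 CPM in heterozygotes and 14.3, 14.5 and 17.7 CPM in null embryos. The null values lay above all others, and the log2 fold change of null to WT was 0.75 (SE 0.14, edgeR adjusted p = 0.0455). That call stood near the threshold: it was lost with any 1 of the 6 embryos left out (edgeR adjusted p = 0.0578 to 0.213) and without the 3 libraries with mesenchyme RNA (0.60, edgeR adjusted p = 0.335). Postn, which encodes the matrix protein periostin, was the other, at 1.60 in null against WT (SE 0.151, edgeR adjusted p = 0.00319), 1.34 without the 3 libraries, and 1.16 in null against heterozygote (edgeR adjusted p = 0.0220). The latter call was lost without Het 1, Het 2 or Het 3 (edgeR adjusted p = 0.155, 0.0758 and 0.164). For heterozygotes against WT Postn gave 0.45 (edgeR adjusted p = 0.0465), under the p threshold but short of the fold threshold. Fibronectin (Fn1, -0.05) and laminin alpha 5 (Lama5, 0.00), both abundant in these ducts, had edgeR adjusted p of 0.929 and 0.997 in null against WT. Tnc, which encodes tenascin C, another alpha 8 ligand, is named after its values were seen. It was 86.5, 75.1 and 106 CPM in WT, 64.7, 41.7 and 54.3 CPM in heterozygotes, and 24.9, 27.7 and 133 CPM in null embryos. Null 1 and Null 2 lay below all other libraries and Null 3 above them. Null against WT gave -0.53 (SE 0.592, edgeR adjusted p = 0.773), and the value was -1.76 without Null 3 (SE 0.158, edgeR adjusted p = 0.00215) and -2.003 without WT 1, WT 2 and Null 3 (edgeR adjusted p = 0.00199). The part of mesenchyme or cartilage RNA in the level of Null 3 was not tested. Without those 3 libraries the ligands called in null against WT were Postn, higher, and Tnc, lower (1.09% of all genes were called in that fit).

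The partners that hold nephronectin in the basement membrane are FRAS1 and the FREM proteins. Of 6 listed genes 5 were tested and none was called in any comparison. Fras1, named here after its values were seen, went from 437, 381 and 387 CPM in WT and 377, 337 and 361 CPM in heterozygotes to 280, 196 and 295 CPM in null embryos. The null values lay below all others, and the log2 fold change against WT was -0.65 (SE 0.151, edgeR adjusted p = 0.0973), not called. It was called by DESeq2 (adjusted p = 9.54e-04) and by edgeR with no filter on low counts (adjusted p = 0.0114), with all 9 libraries in a single fit (adjusted p = 0.0274) and without Null 3 (-0.76, adjusted p = 0.0450). Frem1 and Frem2 gave 0.14 and -0.31 in null against WT (edgeR adjusted p = 0.742 and 0.437).

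Of the other integrin subunits, 12 of 18 listed genes were tested in null against WT, where none was higher and 1 was lower (0.786% of all genes were called lower). That gene was Itgb6, an epithelial beta chain that pairs with alpha v, binds RGD ligands and activates latent TGF-beta. It was 13.8, 14.9 and 12.7 CPM in WT, 11.5, 6.81 and 8.44 CPM in heterozygotes, and 5.16, 6.42 and 4.90 CPM in null embryos, with no overlap between the 3 groups. The log2 fold change was -1.33 in null against WT (SE 0.163, edgeR adjusted p = 0.00768) and -0.64 for heterozygotes against WT (edgeR adjusted p = 0.142). The call was lost without WT 1 (edgeR adjusted p = 0.0581), without WT 2 (0.0687) and without the 3 libraries (-1.13, edgeR adjusted p = 0.124). The leukocyte chains Itgad, Itgam, Itgax, Itgb2 and Itgb7 did not pass the filter and reached at most 0.629 CPM in any library. Itgal and Itgae, also leukocyte chains, were tested at 0.613 to 1.32 CPM and 0.323 to 1.53 CPM and were not called (edgeR adjusted p = 0.779 and 0.313 in null against WT).

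Inside the cell, 28 of 30 listed genes of the adhesion complex were tested, and in null against WT 1 was higher and 2 were lower (0.92% and 0.786% of all genes), with a median of 0.04. The same 3 genes were called without the 3 libraries with mesenchyme RNA. Fermt1 encodes kindlin 1, which activates integrins in epithelia. It was 15.3, 15.6 and 15.7 CPM in WT, 23.2, 21.0 and 20.8 CPM in heterozygotes and 40.8, 35.5 and 30.98 CPM in null embryos. The 3 groups did not overlap. It rose by 1.20 in null against WT (SE 0.124, edgeR adjusted p = 0.00486) and by 0.72 in null against heterozygote (edgeR adjusted p = 0.0481), while heterozygote against WT gave 0.48 (edgeR adjusted p = 0.0588). Without the 3 libraries with mesenchyme RNA the null against WT value was 1.28 (edgeR adjusted p = 0.00565). It kept its null against WT call in 6 of 6 fits with an embryo left out, and its null against heterozygote call in 1 of 6.

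Ptk2b, for the kinase PYK2, a relative of focal adhesion kinase, was 12.5, 11.7 and 9.39 CPM in WT, 8.71, 7.56 and 8.26 CPM in heterozygotes and 3.67, 4.23 and 3.73 CPM in null embryos. Again the groups did not overlap. It fell by 1.53 in null against WT (SE 0.174, edgeR adjusted p = 0.00662) and by 1.08 in null against heterozygote (edgeR adjusted p = 0.0323). The first call was lost without WT 1 or WT 2 (edgeR adjusted p = 0.0526 and 0.0583), and the second was lost in 4 of 6 fits with an embryo left out. Tns3, for tensin 3, which ties actin to beta chain tails, went from 299 ± 49.1 CPM in WT and 228 ± 39.1 in heterozygotes to 148 ± 27.5 in null embryos (SD, n = 3). Null against WT was -1.02 (SE 0.160, edgeR adjusted p = 0.0234), and it was lost without WT 1, WT 2, Null 1 or Null 2 (edgeR adjusted p = 0.0540 to 0.112). The kinase Ptk2 and the talin genes Tln1 and Tln2, which most cells use to couple integrins to actin, gave -0.10, -0.08 and -0.05 (edgeR adjusted p = 0.633, 0.843 and 0.867). With both thresholds, edgeR called no gene of these 4 lists in heterozygotes against WT.

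**Figure D5:**
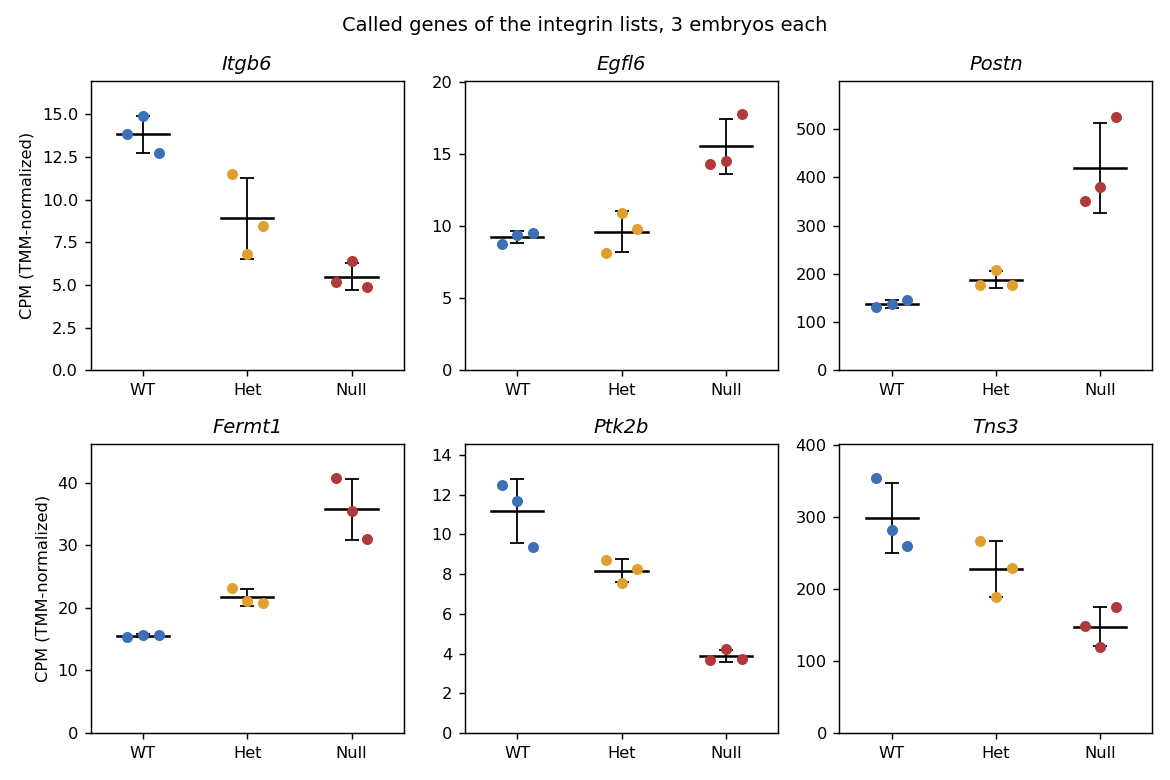
Level of the 6 called genes of the ligand, integrin and adhesion complex lists in every library, in CPM after TMM scaling on axes that start at 0, with bars for the mean and SD of 3 embryos. Null points of Egfl6, Postn and Fermt1 lie above the WT and heterozygote points, and those of Itgb6, Ptk2b and Tns3 lie below them.

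The genes whose pattern was most like that of Itga8 were found by the root mean square difference in log2 CPM, centred on the WT mean, over the 9 libraries and 16663 genes. Its antisense gene came first (0.159), followed by Gm31698 (0.242), Gsn (0.250), Gucy1b1 (0.254) and Efhd1 (0.257). Gsn encodes gelsolin, which severs actin filaments, and it went from 172 to 233 CPM in WT to 36.9 to 60.8 CPM in null embryos, with heterozygotes between (102 to 121 CPM). Gucy1b1, for the beta chain of soluble guanylate cyclase, went from 9.56 to 14.95 CPM in WT to 1.98 to 2.89 CPM in null embryos. Efhd1 is also one of the 6 markers of Kölliker's organ used above. The points share library, depth and admixed RNA, so the likeness is a description. For Npnt, whose level was nearly flat, the nearest were Zfyve27 (0.0296), Vps37b (0.0348), Efs (0.0377), Klhdc2 (0.0380) and Mib2 (0.0386).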

How the data were processed

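The authors deposited read counts for each Ensembl gene, as whole numbers with no normalization. TruSeq mRNA libraries were sequenced as single reads, and the submitters' processing notes name cutadapt 1.13, STAR, HTSeq 0.6.1p1, DESeq2 and mm10. The strand setting and the annotation release of the counting are not given in the sources used here. All 37 mitochondrial genes held 0 counts.

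Gene names, positions and exon lengths came from GENCODE M21 of the same build, which holds 54165 of 54232 identifiers, and upstream sequence from RefSeq windows (GRCm38.p6), which hold 9 of the 10 members. Each pair of genotypes was fitted with edgeR 4.0.16 (R 4.3.3, TMM, filterByExpr with a minimum count of 10, quasi-likelihood test). P-values were adjusted over all genes tested. They measure at most the spread between 3 embryos, and those of Itga8 and Itga1 with no filter on low counts in heterozygotes against WT do not measure it. Shares were compared with exact permutation tests. On simulated counts for 16929 genes of null against WT, the procedure recovered 190 of 200 changed genes with 7 false calls. Every changed gene there had a log2 fold change of 2 up or down. All genes had a single spread, lower than that of the real libraries, and no RNA was admixed. The recovery therefore does not apply to smaller changes or to these libraries. No 2 libraries of a genotype were alike within sampling noise. Genes named are Prdm16, the members, genes overlapping them, called genes of the lists, and the 5 nearest in pattern to Itga8 and to Npnt. Besides these, Tectb, some cell type markers and examples of genes not called were picked by hand. The members and lists were chosen with earlier results of these data known. Alternatives were DESeq2 1.42.0, other scalings and filters, a single fit of 9 libraries, a block for the number in the labels, a mesenchyme covariate, and leaving out each embryo. In situ, qPCR and single-cell experiments were not analysed here.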

Additional observations from a re-analysis of the deposited data

How the results depend on the processing

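With 3 embryos a genotype, fold changes well under the interval widths given above could not be detected, and values are relative to the total RNA of a dissected duct whose purity varied. Itga8 in null against WT kept its direction and call in all 17 alternatives, with log2 fold changes from -2.34 to -1.96 (edgeR or DESeq2 adjusted p at most 0.0269), and Npnt was not called in any comparison under any alternative. In heterozygotes against WT, Itga8 was called with no filter on low counts (-0.53, edgeR adjusted p = 6.49e-15) and with the replicate block (-0.53, edgeR adjusted p = 0.0331), and Itga1 with no filter (-4.15, edgeR adjusted p = 7.28e-42), with the replicate block (-3.82, edgeR adjusted p = 0.0356) and with DESeq2. With no filter the SE fell from 0.183 to 0.0592 for Itga8 and from 0.969 to 0.256 for Itga1. The WT and heterozygote values of both genes overlapped, so these p-values without the filter do not measure the spread between embryos, and nothing is read from them. The members called lower in heterozygotes against WT were thus 2, 2 and 1 with no filter, the block and DESeq2, against 0. They were from 0 to 1 with an embryo left out (Itga1 without WT 3). Calls lower over all genes rose in the same fits, from 17 to 575, 165 and 243, and to 458 without WT 3, so the member counts are not particular to these genes. The deviations of embryos of the same number correlated between -0.284 and 0.202. With 3 libraries per genotype, each taken from its genotype mean, and admixed RNA in WT 1, WT 2 and Null 3, this cannot show whether the number pairs them. With the block 65 genes were called higher and 68 lower in null against WT, in place of 158 and 135, and Egfl6, Tns3 and Tectb lost their call (edgeR adjusted p = 0.131, 0.0643 and 0.0583). DESeq2 called 329 higher and 280 lower, no filter on low counts 267 and 209, a single fit of 9 libraries 260 and 208, the fit without WT 1, WT 2 and Null 3 85 higher and 123 lower, and fits with an embryo left out 31 to 214 and 37 to 232. In heterozygotes against WT, where 9 genes were higher and 17 lower, DESeq2 called 54 and 243, the block 32 and 165, no filter 109 and 575, the single fit 0 and 0, the mesenchyme covariate 2 and 9, no fold change threshold 22 and 23, the fit without the 3 libraries 3 higher and 11 lower, and fits with an embryo left out 0 to 47 and 0 to 458. In null against heterozygote, where 50 genes were higher and 55 lower, DESeq2 called 195 and 166, the block 22 and 30, no filter 227 and 139, the single fit 79 and 85, the mesenchyme covariate 119 and 138, the fit without the 3 libraries 86 higher and 115 lower, and fits with an embryo left out 5 to 81 and 6 to 101. In null against heterozygote, Itga8 ran from -1.81 to -1.43 with an embryo left out and the members called lower from 0 to 1. The Itga8 share of null against WT was -15.2 points without WT 1, WT 2 and Null 3. Values that turned their sign in that same fit were Itga9 (-0.0838) and Itgb1 (-0.0283) in null against WT, Itga5 (0.0968) and Npnt (-0.0924) in heterozygotes against WT, and Itga1 (-0.58, from 1.62) and Itga9 (-0.0042) in null against heterozygote. With the mesenchyme covariate Itga5 (0.18), Itga1 (0.29) and Npnt (-0.12) turned in heterozygotes against WT and Itga1 (-0.0812) in null against heterozygote, and with library size alone Itgb1 (-0.0066) in null against WT. With an embryo left out, signs turned within these ranges: in null against WT Itga5 -0.0202 to 0.69, Itgav -0.14 to 0.0738, Itga9 -0.084 to 0.12 and Itgb1 -0.0627 to 0.05995, in heterozygotes against WT Npnt -0.0155 to 0.0856, and in null against heterozygote Itgav -0.18 to 0.0346, Itga3 -0.0213 to 0.0688, Itga1 -0.58 to 2.30, Itga4 -0.0795 to 0.11 and Itga9 -0.0094 to 0.20. The cause of these shifts was not tested.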

Other observations

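The gene pairs that share exons with members besides Itga8 were read at low counts. Cerkl, opposite Itga4 and known for its role in the retina, held 50, 45 and 27 counts in WT, 15, 5 and 25 in heterozygotes and 11, 5 and 6 in null embryos, so its null counts lay below all WT counts. Gm13684, opposite Itgav, held 0 to 14 counts per library, and Gm49395, on the strand of Itga1, held 0 to 5.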
